A study of Arabidopsis thaliana with 30 samples.

Results

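The genes described here are those of the chloroplast and mitochondrial genomes of Arabidopsis thaliana, as counted in RNA-seq libraries of seedlings from a study of hybrid vigour. They were chosen by identifier and by count: every row whose identifier starts with ATCG (chloroplast genome) or ATMG (mitochondrial genome) and whose counts sum to 300 or more over the 30 libraries. Of 33498 rows in the count table, 97 met the rule, 79 from the chloroplast and 18 from the mitochondrion. Just inside the threshold lay ATCG00220 with 394 counts, ATCG00370 with 411, ATMG00513 with 322 and ATMG01170 with 332. Just outside it lay ATCG00860 with 290, ATCG00110 with 259, ATMG01130 with 285 and ATMG01220 with 252.

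Seedlings of 10 lines were grown together on agar medium without any treatment, and the whole aerial tissue was taken at an age of 15 days. C24 and Ler (Landsberg erecta), a pair of inbred accessions, were the parents, and C24XLer and LerXC24 were their reciprocal F1 hybrids, each with 3 biological replicates (A, B and C). The other lines were 6 F6 lines bred from the same parents by recurrent selection, each with 3 siblings: HM-W, HM-S and HM-G, which the submitters call hybrid mimics, and a further set of lines, Sml-D, Med-F and Med-E, which they do not. No mutation or transgene is named for any line, and each F6 line is 1 selected pedigree. The labels state neither the seed parent of each hybrid nor the cytoplasm of the F6 lines. Whether a library was made from 1 plant or a pool is not stated either. The p-values below therefore measure the spread between these libraries. Where the hybrid mimics are compared with the other F6 lines, they measure the spread between lines.

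Chloroplasts and mitochondria keep small genomes of their own. These encode part of the photosynthetic and respiratory complexes and part of the organelles' own ribosomes, and the remaining subunits come from nuclear genes. Chloroplast genes are transcribed by a bacterial-type polymerase, whose core is encoded in the chloroplast and whose sigma factors are nuclear, and by a phage-type nuclear polymerase, whereas plant mitochondria use phage-type polymerases alone. In most flowering plants both organelle genomes pass through the seed parent, so that reciprocal hybrids carry the same nuclear alleles and may differ in their organelles.

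The count table and the reference used here do not pair ATCG or ATMG identifiers with gene symbols, lengths or positions, so the genes are given by identifier and levels of different genes are not compared. For 5 of the 97 genes a note in the reference annotation of a nuclear homologue gives a product name. The names are photosystem II reaction center protein G for ATCG00430, a CemA-like proton extrusion protein for ATCG00530 and ribosomal protein L20 for ATCG00660. The others are the protease subunit CLP P for ATCG00670 and ribosomal protein S11 for ATCG00750. These names were not checked against the organelle genes, and that of ATCG00430 may not be its present name or function. Because identifiers are not paired with positions, no coordinates or sequences are printed for the organelle genes.

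Organelle genes took a small part of these libraries. The sources used here do not say how mRNA was selected, so these counts may not measure the levels of organelle RNA. Gene counts per library ran from 46822397 to 60757656, and the 79 chloroplast genes summed to between 11574 and 78127 counts per library, the 18 mitochondrial genes to between 575 and 2502. Counting error alone is then at most 0.930% of a chloroplast sum and 4.17% of a mitochondrial sum. The 79 genes held 99.6% of all chloroplast counts and the 18 genes 90.5% of all mitochondrial counts. In the chloroplast 17.6% of the members' counts fell on 1 gene, ATCG00020, and 65.4% on the 10 largest, and in the mitochondrion 34.3% fell on ATMG00030 and 86.3% on the 10 largest. The leaf genes LHCB1.3, RBCS1A and CA1 were at or above 2306 CPM (counts per 1000000 counts of the library, with library sizes scaled by TMM) in every library, while the root genes EXPA7 and RHD6 stayed at or below 1.84 CPM and PYK10 ran from 43.9 to 255 CPM. In whole tissue, fewer cells of a type and less RNA per cell cannot be told apart.

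In the depth table, 3 libraries stood apart. Reads aligned to several loci made up 4.04% of the reads in sibling 1 of HM-W, 4.66% in sibling 1 of HM-S and 0.139% in C24 C, against 1.37% to 2.55% in the other 27 libraries. Sibling 1 of HM-W and of HM-S also had the highest organelle shares, and the main values of both lines are therefore given with and without them. C24 C enters every comparison with the parents. Without it 5 instead of 8 of the 97 genes were called in C24XLer against the mid-parent, and the other counts of called genes stayed within 1.5 times. Calls of single genes were also lost without it, among them that of ATMG00670 for the parental minus the reciprocal difference, described below.

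The mean chloroplast share of the counts was low and close in 5 lines and higher in the other 5. Libraries of LerXC24 overlapped those of C24 and Sml-D, and C24XLer A (323) lay below C24 B (331). In counts per 1000000 gene counts of the library, the chloroplast sum was 233, 331 and 225 in C24, with a mean of 263 ± 59 (SD, n = 3), and 245, 263 and 256 in Ler, with a mean of 255 ± 9.1. Near these values lay Med-E at 262 ± 13, HM-G at 268 ± 17 and Sml-D at 268 ± 45. It was 323, 443 and 609 in C24XLer, 362, 308 and 304 in LerXC24, and 653, 453 and 424 in Med-F. These 3 lines had means of 459 ± 144, 325 ± 32 and 510 ± 125, which are 1.77, 1.26 and 1.97 times the mean of the parents.

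The highest means belonged to HM-W and HM-S. The siblings of HM-W stood at 1062, 472 and 633 (mean 723 ± 305), and those of HM-S at 1541, 457 and 448 (mean 815 ± 629). Sibling 1 of each line was far above the other 2, and without them the means were 553 and 452. The fold over the parental mean was then 2.14 instead of 2.79 for HM-W and 1.75 instead of 3.15 for HM-S. All 6 libraries of these lines remained above the parents, whose highest library stood at 331.

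Mitochondrial sums followed the same order only in part. In the same unit they were 12.9, 20.2 and 12.2 in C24 (15.1 ± 4.4) and 11.8, 13.8 and 12.5 in Ler (12.7 ± 1.0). C24XLer had 14.3, 16.9 and 23.8, while LerXC24 had 12.8, 13.1 and 11.2, so that the reciprocal hybrids did not overlap. HM-W had 37.0, 19.2 and 23.0, HM-S 49.4, 14.0 and 16.8, and Med-F 25.7, 18.0 and 24.5. Without sibling 1 the mean of HM-S was 15.4, which is 1.11 times the parental mean, and that of HM-W was 21.1, or 1.52 times.

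**Figure D1:**
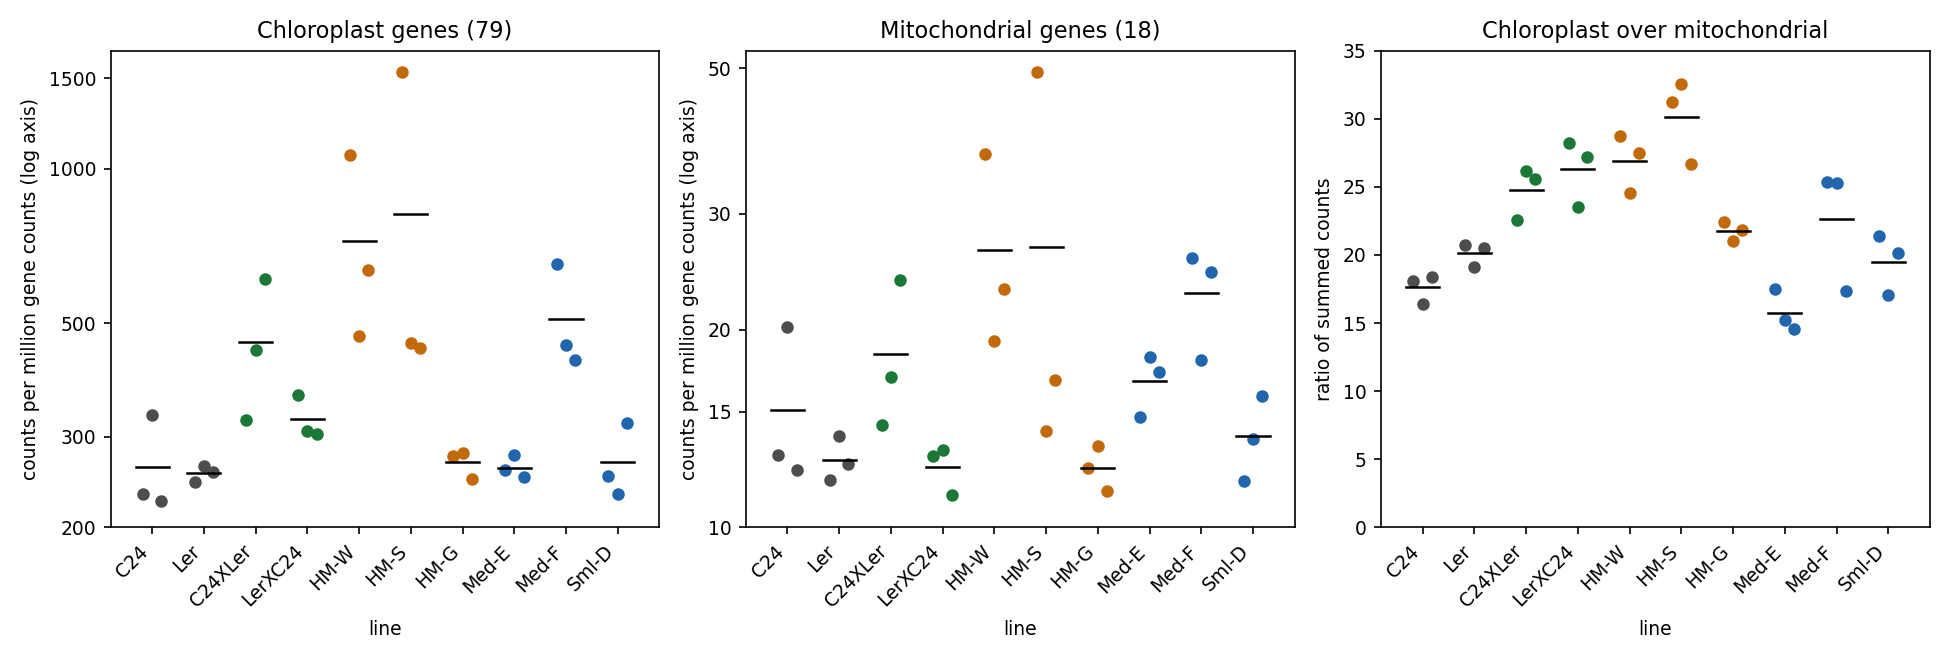
Summed counts of the 79 chloroplast genes (left) and the 18 mitochondrial genes (middle) per 1000000 gene counts on log axes, and their ratio on a linear axis (right), for the 10 lines; each dot is a library and each bar the mean of a line's 3 libraries. Sibling 1 reaches a chloroplast sum of 1541 in HM-S and 1062 in HM-W, and the ratio of every F1 library lies above every parental one.

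Across the 10 lines the chloroplast share differed by a permutation test of the F statistic (100000 resamples, F = 2.44, p = 0.0384), but not after adjustment over the 3 tests of this kind (adjusted p = 0.0576). Without C24 C the permutation p was 0.0519. The mitochondrial share did not reach the threshold by the same permutation test (F = 1.77, p = 0.107). In the order of the 10 lines by mean, all 9 pairs of neighbours overlapped for either share. Without sibling 1 of HM-W and HM-S the permutation p-values were 0.00143 for the chloroplast share and 0.00722 for the mitochondrial share (adjusted p = 0.00214 and 0.00722).

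The ratio of chloroplast to mitochondrial counts separated the lines more clearly than either share. From the lowest mean to the highest it was 15.8 ± 1.6 in Med-E, 17.6 ± 1.1 in C24, 19.5 ± 2.2 in Sml-D, 20.1 ± 0.90 in Ler, 21.8 ± 0.70 in HM-G, 22.7 ± 4.6 in Med-F, 24.8 ± 1.9 in C24XLer, 26.3 ± 2.5 in LerXC24, 26.9 ± 2.2 in HM-W and 30.2 ± 3.1 in HM-S (SD, n = 3 each). The permutation test of the log2 ratio gave F = 11 and p = 1e-05, the smallest that 100000 resamples can give, and p = 8e-05 without sibling 1 of HM-W and HM-S. Neighbours in this order overlapped except Ler and HM-G. The ratios of the 6 F1 libraries ran from 22.6 to 28.2, and those of the 6 parental libraries from 16.4 to 20.8, with no overlap. Without sibling 1, HM-S kept a ratio 1.57 times the parental mean, against 1.60 with it.

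The chloroplast and the mitochondrial shares rose and fell together from library to library. Over the 30 libraries Pearson's r was 0.899 (permutation p = 1e-05) and Spearman's rho 0.756, within lines r was 0.937, and without the 2 farthest libraries, sibling 1 of HM-S and of HM-W, r was 0.777. The percentage of reads aligned to several loci moved with both: r was 0.858 with the chloroplast share and 0.871 with the mitochondrial share, and 0.645 and 0.688 without those 2 libraries. With C24 C left out as well these were 0.691 and 0.797. Its part in the differences between lines was not tested. The 30 libraries share lines, and 5 such relations were computed, for which the adjusted p-values of these 3 were all 1.7e-05. The others, with an index of clock genes, are given below with HM-W and HM-S.

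The reciprocal hybrids were compared first because they differ in the direction of the cross. Their chloroplast sums overlapped, with a 1.41-fold higher mean in C24XLer (two-sided exact permutation test, p = 0.2). The mitochondrial sum was 1.48-fold higher in C24XLer without overlap (exact p = 0.1, the smallest that 3 against 3 can give). Their ratios overlapped (exact p = 0.5). Gene by gene, with edgeR's quasi-likelihood test over 29268 genes, no chloroplast gene was called at an adjusted p under 0.05, while 2.35% of all genes were called higher and 2.57% lower in C24XLer. Unadjusted, 2 of the 79 had p under 0.05, as had 5639 of all 29268 genes. DESeq2 called none of the 79, and 4 were called without sibling 1 of HM-W and HM-S. ATCG00020, with 53.7, 56.6 and 120 CPM in C24XLer and 44.5, 36.3 and 35.9 CPM in LerXC24, and ATCG00490, with 48.6, 57.4 and 90.8 CPM against 40.8, 33.5 and 32.6 CPM, were among those, with log2 differences of 0.98 and 0.88 and adjusted p-values of 0.0406 and 0.0416. With all libraries those adjusted p-values were 0.363 and 0.364.

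Of the mitochondrial genes 1 of 18 was called between the reciprocal hybrids, ATMG01170, which had 0 counts in LerXC24 and is described below. The medians of the log2 difference were 0.27 over the chloroplast genes and 0.23 over the mitochondrial ones, against -0.01 over all genes.

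Between the parents few chloroplast genes differed, while mitochondrial genes were called about as often as all genes, with ATMG01170 (described below) among them. In C24 against Ler 1 chloroplast gene was higher and 2 were lower of 79, and 3 mitochondrial genes were higher and 1 lower of 18, while 13.3% of all genes were called higher and 12.5% lower. ATCG00480 stood at 11.3, 14.0 and 15.4 CPM in C24 and at 24.8, 22.3 and 23.3 CPM in Ler, without overlap. Its log2 difference was -0.79 ± 0.18 (SE) with an edgeR adjusted p of 0.0014. In the hybrids it was 18.5, 18.2 and 19.7 CPM in C24XLer and 24.6, 22.3 and 23.5 CPM in LerXC24, again without overlap, and lower in the hybrid that is named for C24 first. That log2 difference of -0.32 was not called (edgeR adjusted p = 0.333).

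ATCG00470 stood at 5.19, 5.47 and 4.44 CPM in C24 and at 8.47, 9.51 and 8.30 CPM in Ler (log2 difference -0.80 ± 0.21, edgeR adjusted p = 0.0061). Both hybrids sat with Ler, at 8.63, 9.24 and 8.01 CPM in C24XLer and 9.68, 8.64 and 7.63 CPM in LerXC24. The parental difference minus the reciprocal one was -0.80 ± 0.30 in log2, just short of the threshold (edgeR adjusted p = 0.0509, and 0.0068 to 0.0498 in 8 of the alternatives). ATCG00370, which averaged 0.264 CPM, was as near it (-2.44 ± 0.91, edgeR adjusted p = 0.0503). It was called when each gene was scaled to the sum of its compartment. With an index of clock genes as a term in the fit, the parental difference of ATCG00470 was -0.67 and no longer called (adjusted p = 0.0769). ATCG00330 went the other way, with 5.98, 8.74 and 5.31 CPM in C24 and 4.54, 3.69 and 3.13 CPM in Ler, a log2 difference of 0.82 ± 0.25 (edgeR adjusted p = 0.0163). It was not called without C24 B (0.58, adjusted p = 0.127), without Ler B (adjusted p = 0.0525) or without Ler C (adjusted p = 0.0790).

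**Figure D2:**
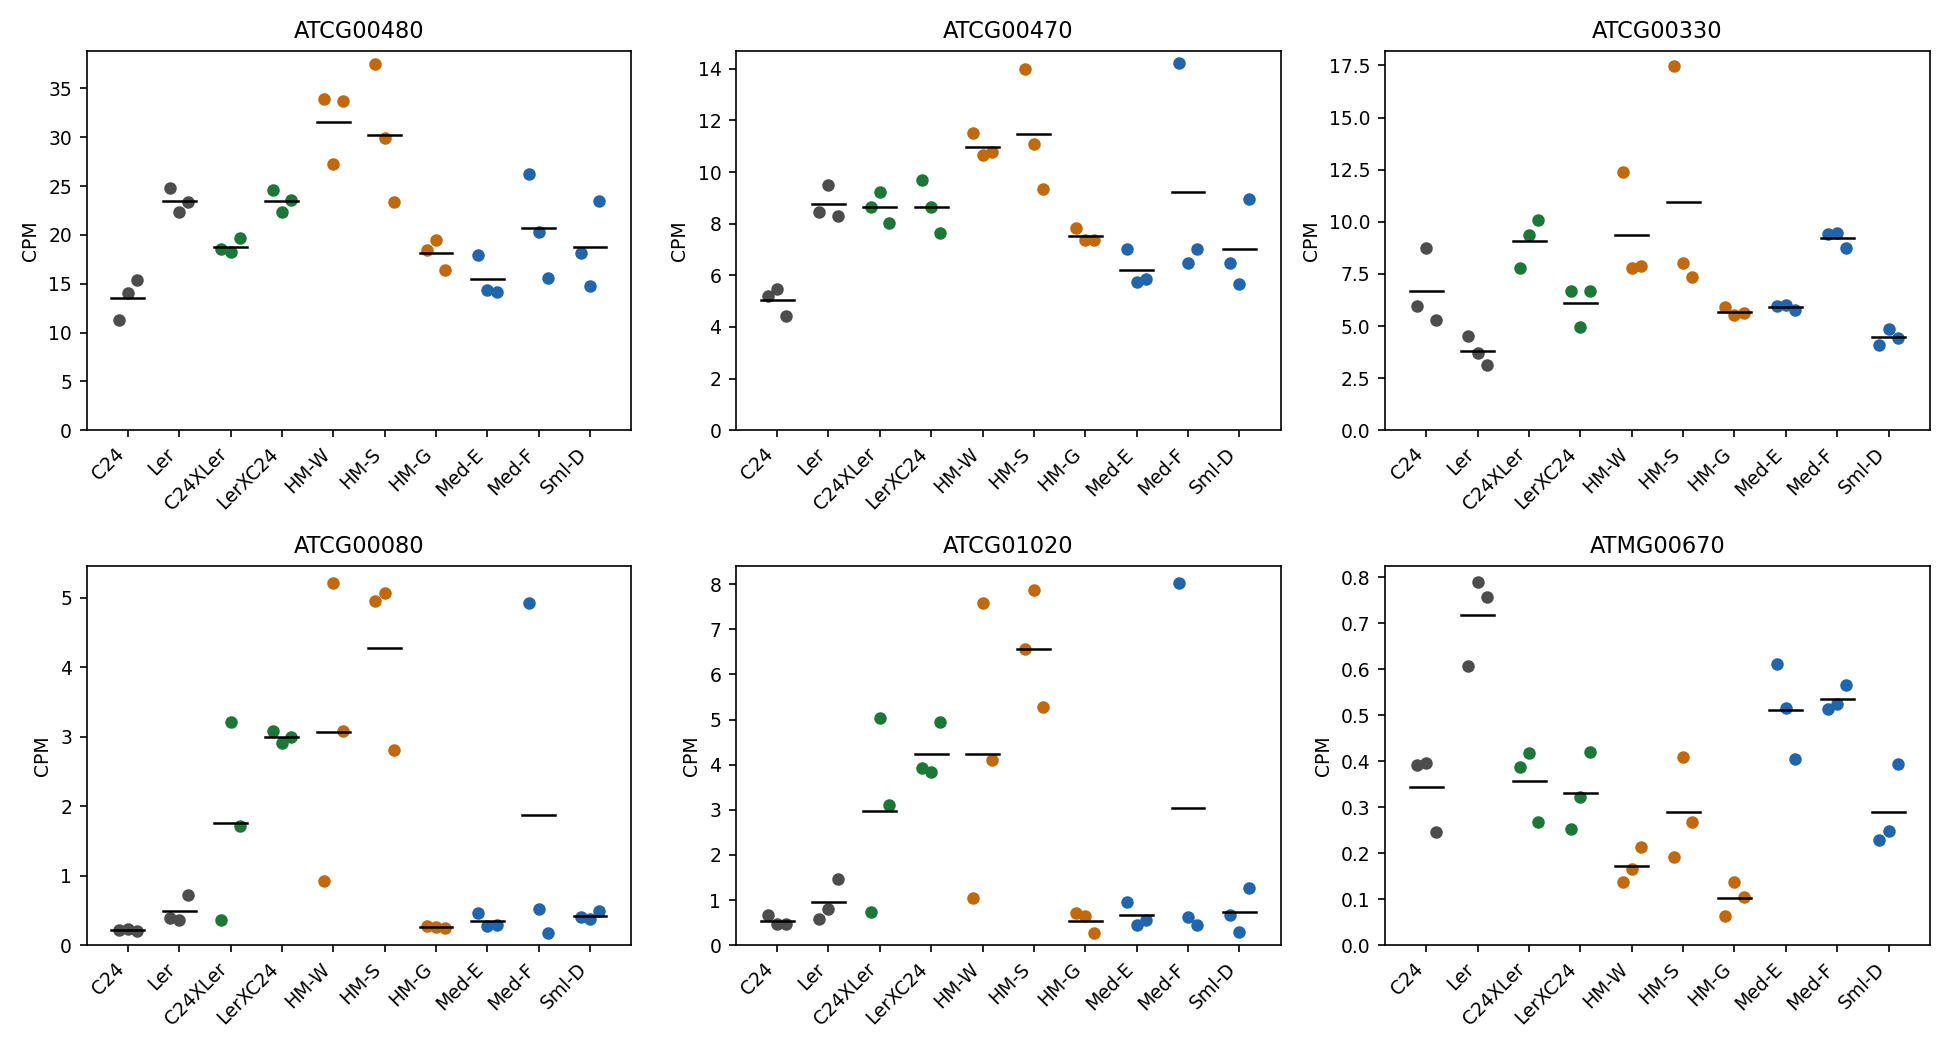
CPM (linear axes from 0) of 5 chloroplast genes and 1 mitochondrial gene in the 10 lines; dots are libraries and bars the means of 3. ATCG00480 and ATCG00470 do not overlap between C24 and Ler, and ATCG00080 and ATCG01020 vary among the libraries of C24XLer, HM-W and Med-F.

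ATMG00670 differed between the parents but not between the reciprocal hybrids, which both lay near C24. It stood at 0.392, 0.396 and 0.245 CPM in C24 and at 0.608, 0.789 and 0.758 CPM in Ler, without overlap (log2 difference -1.05 ± 0.26, edgeR adjusted p = 0.0036). In the hybrids the libraries ran from 0.268 to 0.418 CPM in C24XLer and from 0.253 to 0.420 CPM in LerXC24. The parental minus the reciprocal difference was -1.15 ± 0.39 (edgeR adjusted p = 0.0307). For this contrast, which called 13% of all genes higher and 11.8% lower, no other of the 97 genes was called. It was not called without C24 C (-0.96, adjusted p = 0.0954), Ler B, Ler C, C24XLer A or B, or LerXC24 A or B, with adjusted p-values from 0.0543 to 0.0824 for the last 6, nor by DESeq2 (adjusted p = 0.069).

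ATMG00690 and ATMG00510 were higher in C24. ATMG00690 had 0.490, 0.595 and 0.245 CPM in C24 and 0.081, 0.147 and 0.114 CPM in Ler (1.93 ± 0.66, edgeR adjusted p = 0.0329), and it was not called when any of the 6 libraries but C24 C was left out, with adjusted p-values from 0.0605 to 0.12. ATMG00510 had 0.568, 0.674 and 0.245 CPM against 0.203, 0.257 and 0.208 CPM (1.15 ± 0.35, edgeR adjusted p = 0.0159), a call that was lost without Ler A (adjusted p = 0.0544), Ler C (0.0516), C24 A (0.0554) or C24 B (0.113). These are low counts, and in the hybrids both genes overlapped between the directions of the cross.

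**Figure D3:**
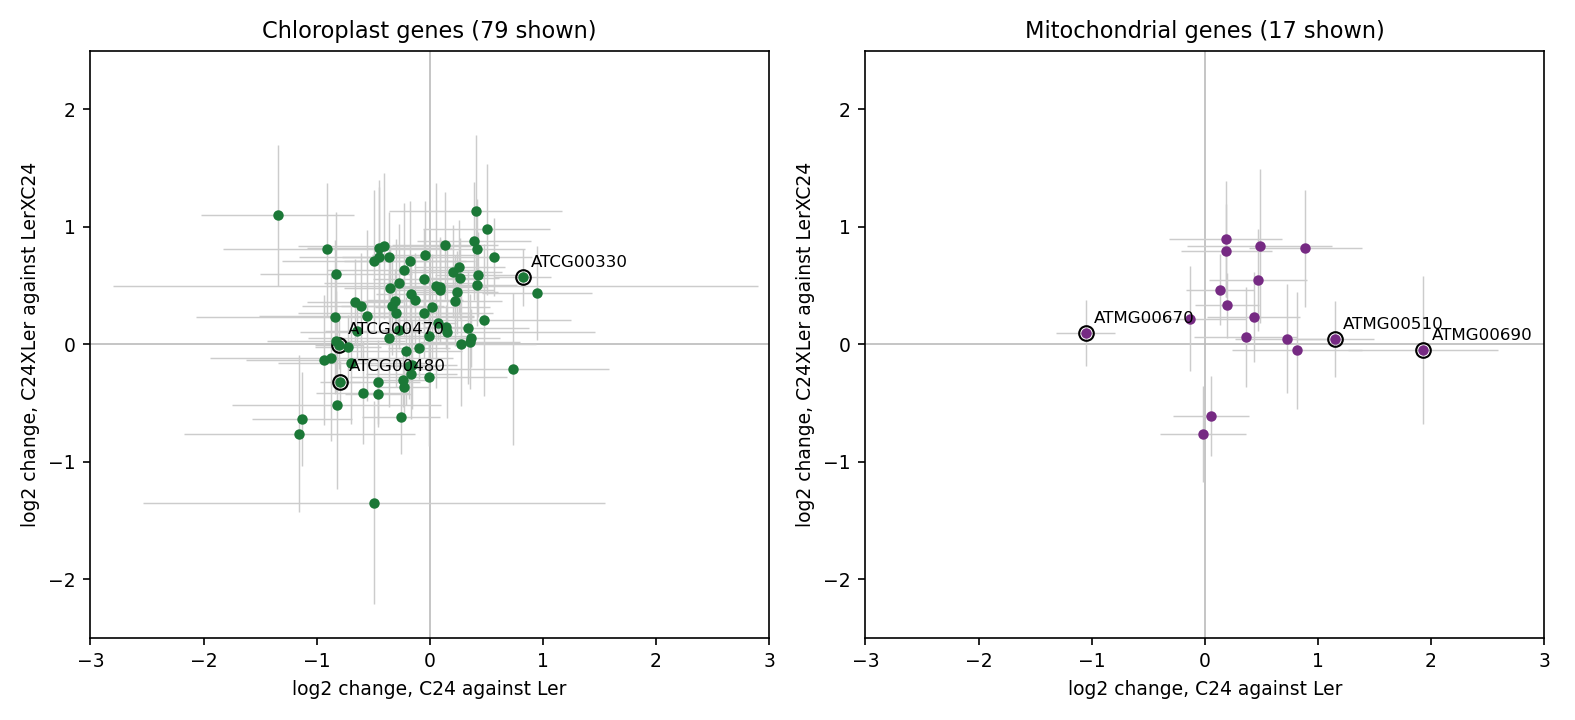
Log2 change of C24 against Ler (horizontal) and of C24XLer against LerXC24 (vertical) for 79 chloroplast genes (left) and 17 mitochondrial genes (right, without ATMG01170, whose Ler and LerXC24 libraries hold 0 counts); each point is a gene, grey lines are 1 standard error and rings mark genes called between the parents. Of the ringed genes ATCG00330 (up) and ATCG00480 (down) lie farthest from 0 on the vertical axis.

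Over the 79 chloroplast genes, the parental and the reciprocal log2 differences had the same sign in 49, and their correlation across genes was r = 0.323 and rho = 0.328. Over the 18 mitochondrial genes 13 had the same sign, with rho = 0.15. The parental and the hybrid libraries are different libraries, but genes of an organelle share its level in each library, so these are descriptions without a test.

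ATMG01170 split the 10 lines. It had 12, 18 and 17 counts in C24, 36, 24 and 27 in C24XLer, 33, 28 and 20 in Sml-D, 36, 6 and 7 in Med-F, 8, 29 and 10 in Med-E, and 6, 4 and 11 in HM-G. It had 0 counts in all 12 libraries of Ler, LerXC24, HM-W and HM-S. Against a floor of 3 counts summed over a line's 3 libraries, C24 was at least 15.6-fold higher than Ler and C24XLer at least 32-fold higher than LerXC24. It reached 300 counts only through the 18 libraries that hold it, so these values are a description and no test of the difference is given, although the gene is one of those counted as called between the parents and between the reciprocal hybrids.

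The same division was seen in some rows under the threshold of 300 counts, which were looked at after the values of ATMG01170 had been seen. ATMG00730, which a reference note names as cytochrome c oxidase subunit 3 of the respiratory chain, had between 5 and 20 counts in each of the 18 libraries with ATMG01170 counts and 0 in the other 12. ATMG00040 (79 counts in all) and ATMG00050 (36 counts) were also at 0 in those 12 libraries, and had counts in 14 and 12 of the 18. Among nuclear rows of 20 or more counts, 3 were at 0 in the same 12 libraries: AT2G07667 (47 counts in 13 of the 18), AT5G26262 (21 counts in 8) and AT2G13350 (37 counts, all in 1 library). Among all 33498 rows, 4 had 0 counts in every library of Ler and LerXC24 and at least 1 count in every library of C24 and C24XLer: ATMG01170, ATMG00730, ATMG01090 and the nuclear AT1G23650. In the F6 lines only ATMG01170 and ATMG00730 kept to the division. ATMG01090 had 2 counts in HM-S sibling 3 and 0 in 1 library each of Med-F and Sml-D, and AT1G23650 had 1 count in each HM-W library and 0 in all libraries of Med-F and Sml-D. The mirror pattern held for a single row, the nuclear AT2G07747. It had 4, 1 and 1 counts in Ler, 8, 7 and 2 in LerXC24, 6, 2 and 5 in HM-S, 8, 9 and 6 in HM-W, and 0 in the other 18 libraries. These counts are few, so a library at 0 does not show that a transcript is absent.

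**Figure D4:**
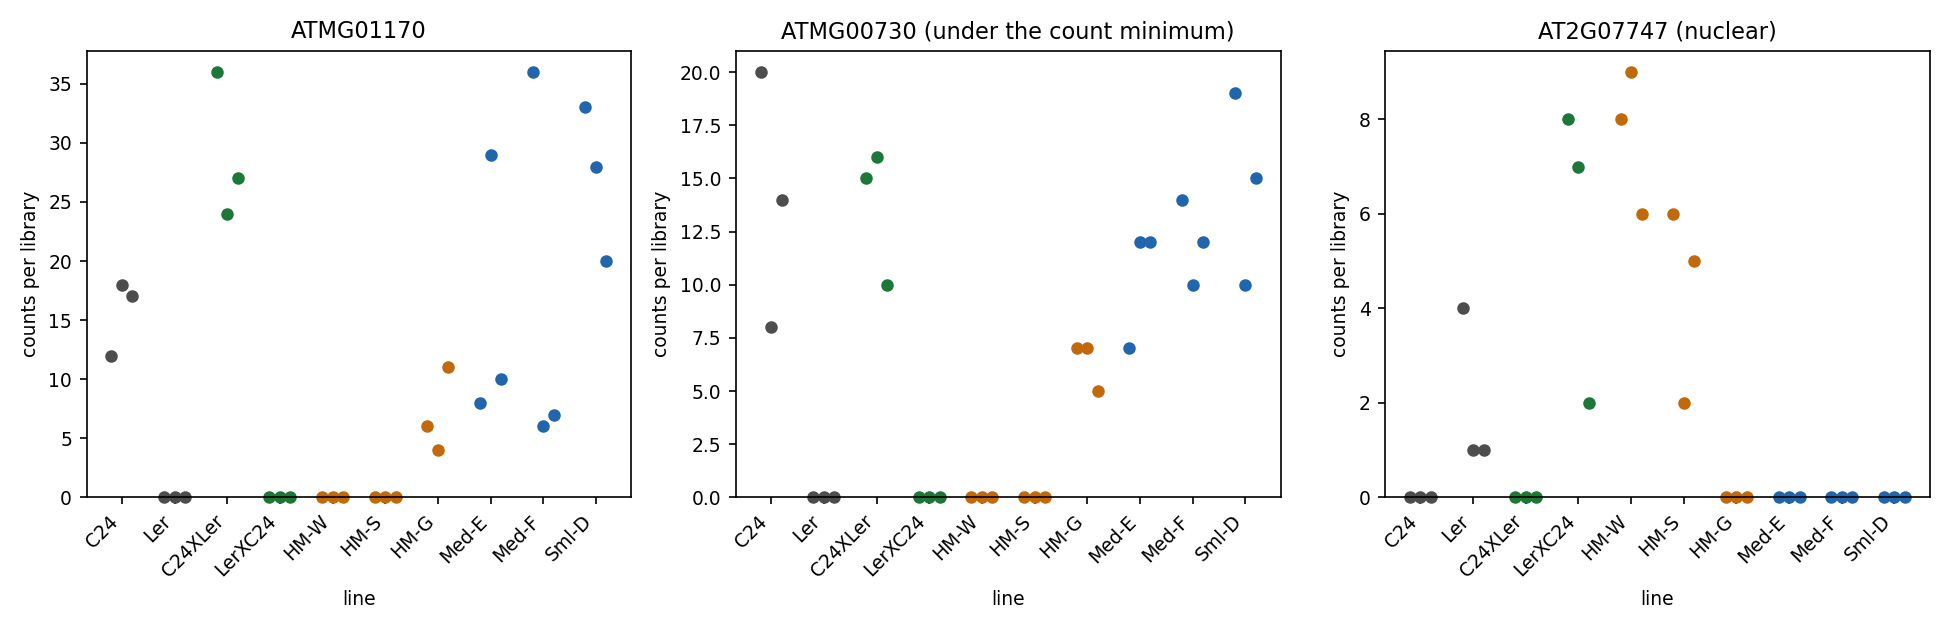
Counts per library of ATMG01170, of ATMG00730 (213 counts in all, under the threshold) and of the nuclear row AT2G07747 in the 10 lines, each dot a library. The first 2 rows are at 0 in all 12 libraries of Ler, LerXC24, HM-W and HM-S, and the third is above 0 in those libraries alone.

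Counts of mitochondrial genes can be shared with the nuclear genome, because chromosome 2 of Arabidopsis carries a copy of much of the mitochondrial genome. In the RefSeq assembly TAIR10.1, of the Col-0 accession, 72.9% of the 367808 bases of the mitochondrial genome were matched by nuclear sequence at an identity of 99% or more over at least 100 bases, 72.7% by chromosome 2 alone, between positions 3239038 and 3509765. Of the 154478 bases of the chloroplast genome 0.403% were so matched. AT2G07667, at chr2:3364296-3366661, lies in that stretch too. AT2G07747, a pseudogene at chr2:3244585-3245545 on the minus strand, and AT2G07687, a gene at chr2:3311654-3312651 on the minus strand, both lie in that stretch and were identical to the mitochondrial genome over all of their 961 and 998 bases. Their first 150 bases, 5′ to 3′ (chr2:3245396-3245545 and chr2:3312502-3312651, RefSeq TAIR10.1), are shown because no base tells the nuclear from the mitochondrial copy; no base is in capitals for that reason.
AT2G07747: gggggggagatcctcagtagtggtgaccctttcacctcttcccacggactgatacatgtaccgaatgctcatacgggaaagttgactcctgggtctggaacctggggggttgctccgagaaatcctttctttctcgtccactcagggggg
AT2G07687: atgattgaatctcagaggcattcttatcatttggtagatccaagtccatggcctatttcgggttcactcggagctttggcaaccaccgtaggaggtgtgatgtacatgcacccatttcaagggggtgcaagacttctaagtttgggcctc

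The 129 nuclear rows counted within that stretch of chromosome 2 summed to 3.20 to 8.21 counts per 1000000 gene counts in the 30 libraries. Their mean was 5.13 ± 1.05 over all libraries and highest in HM-S (7.06 ± 1.18). AT2G07687 had 99 counts in all, from 0 to 7 per library. No source used here says how the authors' counting divided reads between the copies, so the level of a mitochondrial gene with such a copy is uncertain. In the chloroplast the inverted repeat takes up 34.0% of the genome, and genes with a copy in each arm carry the same uncertainty.

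Set against the mid-parent, the average of the C24 and Ler log2 levels, the organelle genes called in the F1 hybrids were all higher. In C24XLer 7 of 79 chloroplast genes were called higher and 0 lower, with 1.88% of all genes higher and 0.461% lower. The median over the chloroplast genes was 0.86 in log2, and 77 of the 79 differences were positive. Unadjusted, 50 of the 79 had an edgeR p under 0.05, as had 5310 of all 29268 genes. Genes of an organelle share its level in each library, so they do not count as separate observations. The largest among genes averaging 1 CPM or more were ATCG00070 (2.23 ± 0.47), ATCG01050 (1.57 ± 0.33), ATCG00560 (1.43 ± 0.32) and ATCG00330 (0.86 ± 0.21). The others were ATCG00510, ATCG00690 and ATCG00600, and in the mitochondrion ATMG01170 alone was called, of 18. The mid-parent of ATMG01170 averages C24 with Ler, which holds 0 counts, so that a line at the level of C24 also stands above it, and its calls against the mid-parent are not read as a rise. Summed over a line's libraries it had 0.300 counts per 1000000 gene counts in C24, 0.557 in C24XLer, 0.507 in Sml-D, 0.331 in Med-F and 0.319 in Med-E. Without C24XLer B none of the 4 chloroplast genes given with values was called, nor ATCG00560 and ATCG00330 without C24XLer C, nor ATCG00330 without C24 C or Ler C (edgeR adjusted p from 0.0634 to 0.121). The number of called genes depended on single libraries: of 97 it was 8 with all libraries, 26 without C24XLer A, 1 without C24XLer B, 4 without C24XLer C and 5 without C24 C. It was 28 without sibling 1 of HM-W and HM-S, which enter only through the shared estimate of the spread.

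In LerXC24 15 of 79 chloroplast genes were called higher and 0 lower, with 10.1% of all genes higher and 6.32% lower, and the median was 0.47. Of the 79 differences 74 were positive. Unadjusted, 28 had an edgeR p under 0.05, as had 9113 of all 29268 genes. ATCG00080 had 0.216, 0.238 and 0.204 CPM in C24, 0.385, 0.367 and 0.720 CPM in Ler and 3.08, 2.92 and 2.99 CPM in LerXC24, above both parents in every library (3.18 ± 0.65, edgeR adjusted p = 0.0021). Among genes averaging 1 CPM or more, ATCG01020 (2.56 ± 0.65), ATCG00530 (1.82 ± 0.53), ATCG00070 (1.71 ± 0.48) and ATCG01050 (1.3 ± 0.33) were the next. Below 1 CPM, ATCG00510 (4.18 ± 1.26), ATCG00220 (3.85 ± 0.96), ATCG00690 (3.10 ± 0.71), ATCG01070 (2.30 ± 0.80) and ATCG00440 (1.55 ± 0.43) were also called, the first pair above ATCG00080. The other 5 were ATCG00430, ATCG00560, ATCG00630, ATCG00740 and ATCG00800. ATCG00080 and ATCG01050 stayed called whichever library was left out, whereas ATCG01020 was lost without LerXC24 C, ATCG00070 without LerXC24 B or C, and ATCG00530 without C24 A or any LerXC24 library (edgeR adjusted p from 0.0505 to 0.0693). No mitochondrial gene was called (1 of 18 at an unadjusted p under 0.05), and the mitochondrial median was -0.10. The clock index, the mean log2 CPM of 5 evening genes minus that of 6 morning genes, was -0.571, 0.356 and 0.816 in LerXC24, against -1.51 to 0.167 in the parents. With that index as a term 0 of the 97 genes were called, 29 were called in a fit of the compared lines alone, and 8, 7 and 5 without LerXC24 A, B and C. The shares of all genes called in these fits were not counted.

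HM-W and HM-S had higher counts for nearly all chloroplast genes. In HM-W 73 of 79 chloroplast genes were called higher and 0 lower, with 12.6% of all genes higher and 12.1% lower, and in HM-S 76 of 79 were higher and 0 lower, with 15.1% and 14.4% of all genes. The median log2 differences were 1.44 and 1.66. The 6 not called in HM-W were ATCG01090, ATCG00380, ATCG01060, ATCG00090, ATCG00550 and ATCG00390, and the 3 not called in HM-S were ATCG00370, ATCG00550 and ATCG00390. Without sibling 1 of both lines 64 were called in HM-W with a median of 1.24 and 49 in HM-S with a median of 1.02, all of them among the genes called before, while 23.3% and 21.8% of all genes were called in either direction. With the clock index as a term 27 of the 97 genes were called in HM-W, against 80 without it, and 69 in HM-S, against 82. The share of all genes called with that term was not counted, so the fall is not read as particular to organelle genes. The index had means of -0.479 in C24, -1.38 in Ler, 0.200 in LerXC24, -0.019 in HM-W and -0.156 in HM-S. Its effect and that of the line therefore cannot be fully told apart. Over the 30 libraries its r was 0.440 with the chloroplast share and 0.195 with the mitochondrial share. Within lines these were -0.025 and -0.042. Among genes averaging 1 CPM or more the largest in both lines was ATCG00080, with 3.21 ± 0.65 in HM-W and 3.69 ± 0.63 in HM-S. Its values were 3.65 and 3.57 when sibling 1 of both lines was left out. Of the genes below 1 CPM, 3 stood above it: ATCG00510 (4.37 ± 1.24 and 5.86 ± 1.04), ATCG00220 (3.95 ± 0.97 and 4.52 ± 0.90) and ATCG00690 (3.33 ± 0.71 and 4.42 ± 0.66). At 1 CPM or more ATCG01020 (2.56 ± 0.66 and 3.19 ± 0.64), ATCG00040 (2.13 ± 0.55 and 2.68 ± 0.53) and ATCG01130 (2.06 ± 0.60 and 2.57 ± 0.57) followed, then ATCG00030 in HM-W (2.03 ± 0.52) and ATCG00070 in HM-S (2.57 ± 0.46). In HM-W ATCG01020 was not called without sibling 2 (1.84, edgeR adjusted p = 0.0944) nor ATCG01130 without sibling 3 (1.94, adjusted p = 0.0545).

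The mitochondrial genes of these lines were less uniform. In HM-W 6 of 18 were higher (ATMG00030, ATMG00090, ATMG01370, ATMG00060, ATMG00513 and ATMG00660) and ATMG00670 was lower. In HM-S 5 were higher (ATMG00030, ATMG00090, ATMG00060, ATMG00513 and ATMG00510) and ATMG00670 was lower. ATMG00030 had 17.5, 4.72 and 8.94 CPM in HM-W and 23.0, 3.21 and 5.48 CPM in HM-S, against 2.77 to 5.47 CPM in the parents, so that sibling 2 of either line lay within the parental range. Its log2 difference was 1.51 ± 0.40 in HM-S and 1.48 ± 0.40 in HM-W, and without sibling 1 it was 0.88 in HM-W but 0.23 in HM-S, neither called (edgeR adjusted p = 0.149 and 0.67). ATMG00090 (0.86 ± 0.23 in HM-W, 0.88 ± 0.23 in HM-S) was not called in HM-S without sibling 1 (0.43, adjusted p = 0.179). Without sibling 1 of both lines 4 mitochondrial genes were called in HM-W, ATMG00030 among them (adjusted p = 0.0252), and 0 in HM-S.

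Sibling 1 of HM-W and of HM-S did not exceed its siblings by the same factor in every gene. ATCG00020 had 293, 50.6 and 115 CPM in HM-W and 413, 43.1 and 59.1 CPM in HM-S, against 28 to 54.8 CPM in the parents. Together with ATCG00490 it made up 47.7% of the chloroplast counts in sibling 1 of HM-W and 45.2% in sibling 1 of HM-S, against 17.0% to 36.5% in the other 28 libraries. ATCG00190 had 24.3, 24.8 and 24.7 CPM in HM-W and 25.6, 29.0 and 24.2 CPM in HM-S, so that the siblings were alike, and all were above the parents (11.6 to 17.5 CPM). ATCG00080 had 0.922, 5.21 and 3.08 CPM in HM-W, where sibling 1 was the lowest. Over the 79 chloroplast genes sibling 1 was highest in 48 and lowest in 23 for HM-W, and highest in 71 and lowest in 0 for HM-S. The fold of sibling 1 over the mean of the other 2 had a median of 1.27 in HM-W, from 0.132 (ATCG00220) to 3.53 (ATCG00020), and of 2.60 in HM-S, from 0.960 (ATCG00190) to 8.08 (ATCG00020).

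In Med-F the chloroplast sum was above every parental library in all 3 siblings, at 653, 453 and 424 against at most 331 per 1000000 gene counts, but most calls of single genes rested on sibling 1. ATCG00490 stood at 88.0, 69.2 and 68.9 CPM, above the parents (25.6 to 49.9 CPM) in all 3 siblings, and so did ATCG00340, with 37.1, 46.0 and 43.6 CPM against 14.9 to 32.5 CPM. In Med-F 38 of 79 chloroplast genes were called higher and 0 lower, with 12.9% of all genes higher and 9.87% lower and a chloroplast median of 0.95. Without sibling 1 of Med-F 4 of the 97 genes were called, against 40 with it. ATCG00080 had 4.92, 0.525 and 0.176 CPM and ATCG01020 had 8.02, 0.634 and 0.449 CPM, so that siblings 2 and 3 lay within or near the parental libraries. Their log2 differences of 2.49 ± 0.68 and 2.07 ± 0.67 became 0.11 and -0.40, neither called, without sibling 1. ATCG01130 (2.88 ± 0.57), ATCG00040 (2.13 ± 0.55) and ATCG00530 (2.01 ± 0.53) were also called, and were 1.11, 0.33 and 0.22, not called, without it. ATCG00330, with 9.41, 9.45 and 8.77 CPM, was above every parental library (3.13 to 8.74 CPM) in all 3 siblings (0.87 ± 0.21, edgeR adjusted p = 0.0034). ATCG00180, with 3.68, 5.96 and 3.07 CPM, lay below every parental library (4.38 to 7.09 CPM) in siblings 1 and 3 and was not called (-0.46, edgeR adjusted p = 0.056). ATMG00090 (0.71 ± 0.23) was called of the mitochondrial genes, though not without sibling 1 (edgeR adjusted p = 0.223), and ATMG01170, whose mid-parent holds Ler at 0 counts, made up the count of 2 among 18. ATMG00090 was also lost without sibling 3, C24 A, C24 C or Ler A (from 0.063 to 0.126).

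The 3 remaining F6 lines stayed close to the parents. In HM-G 1 chloroplast gene was higher, ATCG00160 (0.74 ± 0.23), and 1 lower, ATCG00750 (-0.63 ± 0.21), with 7.22% of all genes higher and 6.16% lower. Neither was called without HM-G sibling 1 (0.80 and -0.44) or sibling 3 (0.56 and -0.68). ATCG00160 was also lost without sibling 2, C24 A or Ler A, and ATCG00750 without C24 A, C24 B or any Ler library (adjusted p from 0.0503 to 0.0784). ATMG00670 was the 1 mitochondrial gene called in HM-G, at 0.0641, 0.138 and 0.105 CPM, below every parental library (-2.25 ± 0.31, edgeR adjusted p = 1.8e-05). In Med-E 4 chloroplast genes were lower and 0 higher, with 7.06% of all genes lower and 7.5% higher. ATCG00750, for ribosomal protein S11, had 0.961, 0.775 and 0.769 CPM in Med-E against 1.43 to 2.08 CPM in the parents (-1.07 ± 0.22, edgeR adjusted p = 0.0013), with no overlap. ATCG00780 (-0.85 ± 0.21), ATCG00170 (-0.62 ± 0.15) and ATCG00190 (-0.42 ± 0.14) were the others. ATMG01170 was the 1 mitochondrial gene past the threshold, against a mid-parent with Ler at 0 counts, and its level in Med-E was near that of C24. The call of ATCG00190 was lost without Med-E sibling 1 (adjusted p = 0.089) or 2 (0.223), C24 B (0.0921), Ler B (0.0734) or Ler C (0.085).

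In Sml-D no chloroplast gene was called, with 6.73% of all genes higher and 6.37% lower. Unadjusted, 4 chloroplast genes had an edgeR p under 0.05, as had 7752 of all 29268 genes. Of its mitochondrial genes ATMG01170 was past the threshold, again against a mid-parent with Ler at 0 counts, and ATMG00510 (-1.10 ± 0.35) and ATMG00670 (-0.78 ± 0.25) were lower. The latter pair had edgeR adjusted p-values of 0.0350 and 0.0355, and each was lost when Sml-D sibling 1 was left out (0.149 and 0.178) or when C24 A, C24 B, Ler B or Ler C was (from 0.0502 to 0.0736). ATMG00510 was also lost without sibling 3 (0.133) and ATMG00670 without sibling 2 (0.151).

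**Figure D5:**
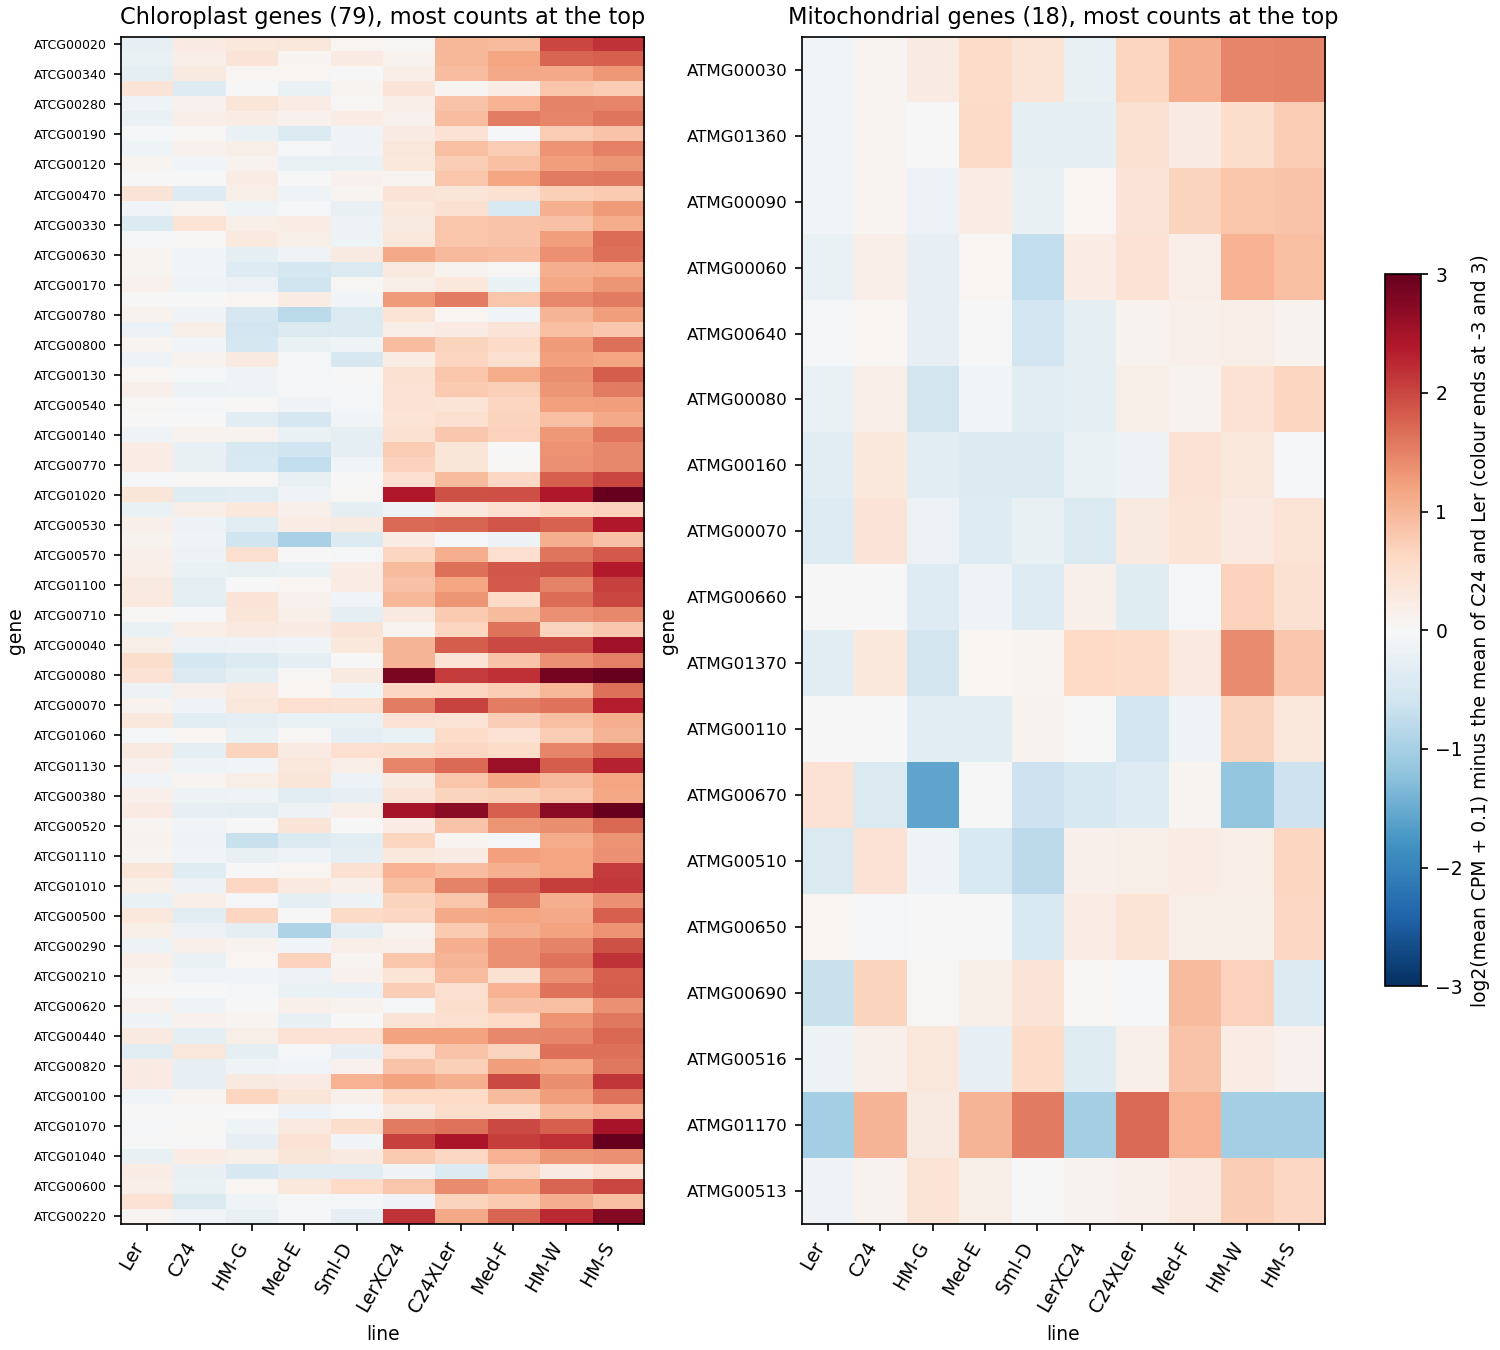
Log2 of the mean CPM plus 0.1 of each line minus the mean of C24 and Ler, for the 79 chloroplast genes (left, every other gene named) and the 18 mitochondrial genes (right), with genes in order of total counts and colour ends at -3 and 3; red is above the parents and blue below. Nearly all chloroplast genes are red in HM-W and HM-S, while the mitochondrial genes are mixed.

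Over the line means, 45 of the 79 chloroplast genes had both F1 hybrids, HM-W, HM-S and Med-F all above the other 5 lines. Of the 18 mitochondrial genes 2 did so. The division of the lines was taken from the order of the chloroplast sum, to which the same 79 genes add up. The chloroplast count is thus a description and no test of that division. The fold between the highest and the lowest line mean had a median of 4.33 for the chloroplast genes (2.00 to 65.3) and of 2.69 for the mitochondrial ones (1.84 to 7.02). The highest line was HM-S for 69 chloroplast genes, HM-W for 6 and Med-F for 4. These orders rested on 2 libraries: without sibling 1 of HM-W and HM-S the highest line was HM-W for 37, Med-F for 28, HM-S for 11 and C24XLer for 3. The median fold was then 3.40 for the chloroplast and 2.45 for the mitochondrial genes, and 45 and 1 had the 5 lines above the others. In the test for any difference among the 10 lines, 76 of the 79 chloroplast genes and 9 of the 18 mitochondrial genes were called, with 65% of all genes, and without those 2 libraries 71 and 9. With all libraries ATMG01170 is among the 9, and its call is not read as a test for the reason given above. When each gene was scaled to the sum of its own compartment, 25 chloroplast and 5 mitochondrial genes were called. The share of all genes called in that fit was not counted.

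A few chloroplast genes of low count had the widest range. They were chosen after their values were seen, and no test is given. ATCG00690 had 0.041 to 0.257 CPM in the 6 parental libraries, 0.286, 2.31 and 2.04 CPM in C24XLer, 1.68, 0.864 and 1.44 CPM in LerXC24 and 6.56, 1.91 and 1.47 CPM in HM-S. ATCG00510 had at most 0.0392 CPM in the parents, 0.0204, 0.757 and 0.876 CPM in C24XLer, 0.429, 0.424 and 0.333 CPM in LerXC24 and 2.67, 0.557 and 0.616 CPM in HM-S. Library A of C24XLer sat with the parents in both genes, and so did siblings 2 and 3 of Med-F in ATCG00510 (0.0543 and 0 CPM against 1.15 CPM in sibling 1). Over all 79 chloroplast genes, library A was the lowest of the 3 C24XLer libraries in 68 and sibling 1 was the highest of the 3 Med-F libraries in 73.

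Scaled to their compartment, 10 chloroplast genes in LerXC24, 5 in HM-W, 10 in HM-S, 9 in Med-F and 1 in C24XLer were called above the mid-parent, of 79. Without this scaling 10.1% of all genes were called higher in LerXC24 and 12.6% in HM-W. The shares were 15.1% in HM-S, 12.9% in Med-F and 1.88% in C24XLer. Shares of all genes in the fit with the scaling were not counted. ATCG00690 was called in C24XLer, LerXC24, HM-W and HM-S, ATCG00510 in LerXC24, HM-W, HM-S and Med-F, ATCG00080 and ATCG00220 in LerXC24, HM-W and HM-S, and ATCG01070 in LerXC24, HM-S and Med-F. ATCG00560 and ATCG01020 were called in LerXC24 and HM-S, ATCG00440 in LerXC24 and Med-F, and ATCG01010 in HM-W and Med-F. ATCG00550 and ATCG01060 were lower in HM-W and HM-S on this scale, and ATMG00640 and ATMG00670 too. With sibling 1 of both lines left out, 9 chloroplast genes were higher and 1 lower in HM-W, and 10 and 4 in HM-S. ATCG00080, ATCG00220, ATCG00510 and ATCG00690 were still higher in both, ATCG00550 was lower in HM-W alone, ATCG01060 in HM-S alone, ATMG00670 in HM-W alone and ATMG00640 in neither. In Med-F 9 chloroplast genes were higher and 9 lower on this scale, where the lower ones were ATCG00170, ATCG00180, ATCG00190, ATCG00480, ATCG00730, ATCG00740, ATCG00750, ATCG00780 and ATCG00790. Such a scaled value shows an unequal change within a compartment and not which gene changed. These comparisons share the parental libraries.

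The hybrid mimics as a group were compared with the other F6 lines, the 3 siblings of a line summed to 1 value. No gene of the 97 was called, with 0.805% of all 29951 genes tested higher and 0.678% lower. Unadjusted, 14 chloroplast and 3 mitochondrial genes had an edgeR p under 0.05, as had 5962 of all 29951 genes. By DESeq2 7 chloroplast genes and no mitochondrial gene were called, and 8 chloroplast genes were called by edgeR when HM-G was left out. The mean chloroplast share was 1.74-fold higher in the mimics (two-sided exact permutation test over 3 against 3 lines, p = 0.3) and the mitochondrial share 1.23-fold (exact p = 0.6). Without sibling 1 of HM-W and HM-S these were 1.22-fold (exact p = 0.6) and 0.919-fold (exact p = 0.7), so that the mitochondrial direction turned. HM-G, with a mean chloroplast sum of 268 per 1000000 gene counts, lay with Med-E and Sml-D, and Med-F, with 510, lay with the F1 hybrids.

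Of 69 nuclear genes in 7 lists of organelle functions, 14 were called between the parents (20.3%, against 25.8% of all genes), 1 between the reciprocal hybrids (1.45% against 4.92%), 1 in C24XLer against the mid-parent (1.45% against 2.34%) and 12 in LerXC24 (17.4% against 16.5%). In the list of 14 nuclear partners of chloroplast complexes 0 were called between the parents, 0 between the reciprocal hybrids and 0 in C24XLer against the mid-parent, and in LerXC24 3 were higher: RBCS1A (0.30 ± 0.10 in log2), the small subunit of Rubisco, and PSAD1 (0.36 ± 0.09) and PSAD2 (0.51 ± 0.12) of photosystem I. Of 14 partners of mitochondrial complexes 1 was higher and 4 lower between the parents, among them ATP5 (-0.37 ± 0.08), a subunit of the ATP synthase. Between the reciprocal hybrids 0 of these 14 were called, in C24XLer 1 was higher, and in LerXC24 3 were higher and 1 lower.

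Of 6 sigma factors, which direct the chloroplast-encoded polymerase to promoters, SIG3 (0.31 ± 0.10) and SIG4 (0.35 ± 0.09) were higher in C24 than in Ler. SIG5 was higher in C24XLer than in LerXC24 (1.37 ± 0.39, edgeR adjusted p = 0.0423) and lower in LerXC24 than the mid-parent (-1.26 ± 0.35, adjusted p = 0.0160). With the clock index as a term these 2 values were 0.09 and 0.12. Of 3 phage-type polymerases 0 were called in these 4 comparisons. Of 13 polymerase-associated proteins PAP4 was lower in C24 (-0.40 ± 0.10) and PAP8 higher in LerXC24 than the mid-parent (0.38 ± 0.11).

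Of 10 genes of organelle RNA decay and processing 2 were higher and 2 lower in C24 than in Ler, and 0 were called in the other 3 comparisons. They were RNE (0.28 ± 0.09), a chloroplast endoribonuclease, and RPF1 (0.79 ± 0.15), RPF2 (-2.52 ± 0.42) and RPF3 (-1.05 ± 0.20), pentatricopeptide repeat proteins that shape the ends of mitochondrial transcripts. The RPF genes are close relatives in 1 family, so the authors' counting could have split their reads. Of 9 editing factors MORF4 (-0.51 ± 0.15) and MORF5 (-0.55 ± 0.11) were lower in C24, and MORF2, MORF3 and MORF6 were higher in LerXC24 than the mid-parent by 0.20 to 0.30. In the hybrid mimics against the other F6 lines 0 genes of these 7 lists were called.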

How the data were processed

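The deposited table holds raw read counts per gene model for 30 libraries, 3 of each of 10 lines; per the submitters' processing notes, FastQC, DESeq and the build TAIR10 were used. The sources used here do not give the aligner, the counting tool, the use of strand or the selection of mRNA. A deposited table of read counts by alignment class gave total reads (41600826 to 53397900 per library) and multiloci reads; gene counts exceeded total reads in all 30 libraries. All columns were mapped to samples by name.

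Counts were fitted with edgeR 4.0.16 in R 4.3.3: genes passing filterByExpr (minimum count 10; 29268, all 97 members among them), TMM factors (0.943 to 1.08), 1 coefficient per line, quasi-likelihood F tests, Benjamini-Hochberg over all genes, threshold 0.05. CPM uses TMM-scaled library sizes. Shares and ratios were tested by permutation in Python 3.11.15 (scipy 1.17.1). Fits were tested on simulated data. Sequence matches used BLASTN 2.17.0+ against RefSeq TAIR10.1. DESeq2 1.42.0 was an alternative.

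The members, the gene lists and the tests were chosen with earlier results of these data known. Named were, per comparison and compartment, up to 5 called members with the largest rise and fall averaging 1 CPM or more, 15 members of a fixed list of 21 identifiers where the text needs them, and any call among 5 or fewer. A part of the rule that needs gene lengths could not be applied. Replicate letters and sibling numbers were not used to pair the samples in the main fits. Between libraries of different lines, same-letter correlations in parents and F1 hybrids had a median of 0.0582, against -0.0483 for different letters. Of these 18 same-letter values 7 were over 0.1, and the highest was 0.311. In F6 lines the medians were -0.015 for the same and 0.0152 for different sibling numbers.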

Additional observations from a re-analysis of the deposited data

Results flagged for a closer look

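The difference between the parents and the difference between the reciprocal hybrids were not the same for ATMG00670: the first minus the second was -1.15 in log2 (edgeR adjusted p = 0.0307, lost in several alternatives). The share of reads aligned to several loci, a column outside the counts, was above the highest parental library (1.72%) in 11 libraries. It was 1.81% in C24XLer B and 2.55% in C24XLer C, 4.04% in HM-W sibling 1 and 2.44% in sibling 3, and 4.66% in HM-S sibling 1 and 1.78% in sibling 3. It was 1.84% in Med-E sibling 2, 1.72% in Sml-D sibling 3, and 2.26%, 2.05% and 2.33% in the 3 siblings of Med-F. Each line has 3 libraries, so no library was tested as an outlier of its line.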

How the results depend on the processing

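Of 1974 values of single genes under the alternatives run, 1769 kept their direction and side of the threshold, 178 lost and 25 gained a call, and 2 reversed: ATCG01020 in Med-F against the mid-parent without sibling 1 (-0.40, in a range up to 2.57 without sibling 3) and SIG5 in LerXC24 against the mid-parent with the clock index as a term (0.12). Counts of called genes changed by over 1.5 times as follows. Scaling each gene to its compartment gave 8 chloroplast and 2 mitochondrial genes between the parents, 1 chloroplast gene between the reciprocal hybrids, 25 and 5 among the 10 lines, and against the mid-parent 2 in C24XLer, 19 in Med-F, 2 in Med-E, 11 in HM-W, 15 in HM-S and 1 in HM-G. A fit of the compared lines alone gave 6 chloroplast genes between the parents, 0 mitochondrial genes between the reciprocal hybrids, 6 for the parental against the reciprocal difference, 29 in LerXC24 and 6 in HM-G.

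With the clock index as a term 0 mitochondrial genes were called between the reciprocal hybrids, 0 for the parental against the reciprocal difference, 0 in LerXC24, 27 in HM-W, 1 in HM-G, 1 in Med-E and 24 in Med-F. DESeq2 called 0 mitochondrial genes between the reciprocal hybrids (its adjusted p for ATMG01170 was not given), 7 chloroplast genes in the mimics, 2 for the parental against the reciprocal difference and 15 in C24XLer. For that difference RLE factors gave 3 genes, library sizes from nuclear genes 3 and no filter on low counts 2. Without sibling 1 of HM-W and HM-S, an alternative chosen after seeing the data, 5 chloroplast genes were called between the parents, 4 between the reciprocal hybrids, 2 for the parental against the reciprocal difference, 28 in C24XLer and 49 in HM-S (12 in HM-W and 14 in HM-S when also scaled to the compartment), the log2 share of the mimics over the other F6 lines reversed to -0.122 in the mitochondrion, and the mitochondrial share across the lines had p = 0.00722; on the log2 scale, also added later, it had p = 0.0295 (permutation test). Among members of 3000 or more counts, which are fewer, 33 chloroplast and 2 mitochondrial genes differed among the 10 lines, 0 mitochondrial genes between the parents and 0 between the reciprocal hybrids, 0 for the difference of differences, and 2 in C24XLer, 6 in LerXC24, 35 in HM-S, 35 in HM-W, 14 in Med-F, 1 in HM-G and 0 in Sml-D.

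With the replicate block, the replicate letter or sibling number as a term, 3 genes were called for the parental against the reciprocal difference, and no other count moved by over 1.5 times. The labels do not say what equal letters or numbers share. Leaving out 1 library at a time gave 2 to 4 chloroplast and 2 to 4 mitochondrial genes between the parents, 0 to 0 and 0 to 1 between the reciprocal hybrids, 74 to 78 and 7 to 11 among the 10 lines, and 0 to 2 for the difference of differences. Leaving out 1 F6 line gave 0 to 8 and 0 to 1 in the mimics. Against the mid-parent the ranges were 1 to 26 in C24XLer, 5 to 14 in LerXC24, 50 to 85 in HM-S, 52 to 77 in HM-W, 4 to 50 in Med-F, 3 to 5 in Med-E, 1 to 3 in HM-G and 1 to 3 in Sml-D. Permutation p-values ranged from 0.00245 to 0.0546 for the chloroplast share, from 0.00793 to 0.164 for the mitochondrial share and from 9.9999e-06 to 6.0e-05 for the ratio. The log2 share of C24 over Ler ranged from -0.155 to 0.145 in the chloroplast, where it was -0.024 without ATCG00020, and from -0.016 to 0.382 in the mitochondrion; both reversed without C24 B. That of C24XLer over LerXC24 ranged from 0.239 to 0.696 and from 0.337 to 0.720, and that of the mimics, leaving out 1 F6 line, from 0.515 to 1.19 and from 0.128 to 0.584. The causes of these changes were not tested, and shares of all genes called in the alternatives are not given here.

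The alternative without rRNA and tRNA genes was not run, because no biotype is paired with the identifiers, and no member had counts equal to another row's. Depth limits the mitochondrial genes most: only 3 of 18 averaged over 1 CPM, against 50 of 79 in the chloroplast.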
